A study of Mus musculus with 7 samples.

Results

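Promoter flanks were taken as the stretches lying more than 500 and at most 2500 nt from a protein-coding transcription start site (TSS), on either side of the core promoter. A DNase peak was counted as a flank peak when its summit, the base with the most fragments, fell in that range from the nearest such TSS of chromosomes 1 to 19. The side was read along the strand of the gene, so that downstream means into the transcribed unit. By this rule 46538 of 1005396 autosomal peaks in the normal glucose (NG) list were flank peaks, 22400 upstream and 24138 downstream. The list of high glucose with a nontargeting mimic (HG+NT) held 35671 of 821607, with 17403 upstream and 18268 downstream. The list of high glucose with the miR-93 mimic (HG+miR-93) held 35980 of 873032, with 17612 upstream and 18368 downstream. Flanks covered 4.48% of the sequenced autosomal bases, 2.17% upstream and 2.31% downstream.

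DNase-Seq reads where chromatin is open, because DNase I cuts DNA that is not wrapped or shielded by protein. The cells were a conditionally immortalised mouse podocyte line, the epithelial cell of the glomerular filter, differentiated before treatment and 1 line throughout. NG cells were kept in 5 mM glucose for 36 hours with no mimic named in their labels, and both HG groups received 25 mM glucose for 36 hours together with 50 nM of mimic, so NG and HG+NT differ in glucose and, by the labels, in transfection. Each group had 2 samples, which the authors pooled into 1 peak list, and 1 genomic DNA input served all 3 lists. No test between conditions was therefore possible. Intervals are 95% intervals of counting error only, Wilson for shares and exact Poisson for fragments, and they do not cover the spread between cultures.

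The core promoter is where transcription begins, and active promoters of mammals usually keep a nucleosome-free region there. The flanks hold the early part of the gene, alternative and divergent start sites, and enhancer-like elements close to the gene. CpG-rich promoters are mostly those of broadly used genes and tend to have wide open regions, whereas CpG-poor promoters are more often tissue-restricted.

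Sequences are shown for sites that ranked highest in all 3 lists, which are the top of 2746 matched flank sites and not typical of them. Windows reaching 100 bases to either side of the HG+NT summit were read from GRCm38 along the strand of the gene, and capitals mark matches to the motif letters given below. The windows of the 4 highest-ranked upstream sites other than Mex3c are shown: 9930021J03Rik at chr19:29806484-29806684 (minus strand) and Rictor at chr15:6707683-6707883 (plus strand), both outside genes, Myo1c at chr11:75654131-75654331 (plus strand) in an intron of another Myo1c transcript, and Fbxo11 at chr17:88066125-88066325 (minus strand), outside genes. None of these windows held an annotated untranslated exon.
9930021J03Rik: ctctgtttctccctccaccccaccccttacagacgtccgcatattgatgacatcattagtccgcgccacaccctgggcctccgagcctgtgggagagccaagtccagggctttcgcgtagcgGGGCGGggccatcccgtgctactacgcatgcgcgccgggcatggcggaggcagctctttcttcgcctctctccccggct
Rictor: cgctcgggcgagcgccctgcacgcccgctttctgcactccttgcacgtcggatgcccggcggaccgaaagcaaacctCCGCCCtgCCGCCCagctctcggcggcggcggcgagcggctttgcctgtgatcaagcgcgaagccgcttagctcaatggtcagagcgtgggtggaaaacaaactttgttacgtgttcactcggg
Myo1c: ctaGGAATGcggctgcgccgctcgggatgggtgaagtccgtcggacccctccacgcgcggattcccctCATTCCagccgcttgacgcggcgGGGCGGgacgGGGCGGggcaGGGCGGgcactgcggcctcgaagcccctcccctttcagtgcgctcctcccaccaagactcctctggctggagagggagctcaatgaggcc
Fbxo11: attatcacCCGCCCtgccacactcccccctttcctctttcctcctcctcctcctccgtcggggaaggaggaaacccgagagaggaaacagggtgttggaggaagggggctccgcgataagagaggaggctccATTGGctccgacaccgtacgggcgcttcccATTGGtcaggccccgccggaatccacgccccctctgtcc

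The windows of the 4 highest-ranked downstream sites are shown in the same way. Jade2 at chr11:51855828-51856028 (minus strand), N4bp2 at chr5:65764631-65764831 (plus strand) and Syt8 at chr7:142437348-142437548 (plus strand) lay in introns of the named genes. Galnt7 at chr8:57651962-57652162 (minus strand) lay in the Galnt7 gene and in an exon of an overlapping gene of another type.
Jade2: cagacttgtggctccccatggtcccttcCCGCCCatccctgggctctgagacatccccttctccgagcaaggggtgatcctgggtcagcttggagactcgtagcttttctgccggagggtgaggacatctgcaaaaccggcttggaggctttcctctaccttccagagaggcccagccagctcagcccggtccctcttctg
N4bp2: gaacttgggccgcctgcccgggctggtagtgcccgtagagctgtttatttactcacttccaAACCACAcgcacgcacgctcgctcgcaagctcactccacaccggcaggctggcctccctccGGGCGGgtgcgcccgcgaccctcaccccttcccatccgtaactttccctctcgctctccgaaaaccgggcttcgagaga
Galnt7: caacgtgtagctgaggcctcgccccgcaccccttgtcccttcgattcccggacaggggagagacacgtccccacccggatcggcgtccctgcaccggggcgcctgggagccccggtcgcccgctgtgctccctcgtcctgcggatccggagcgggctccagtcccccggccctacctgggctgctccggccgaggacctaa
Syt8: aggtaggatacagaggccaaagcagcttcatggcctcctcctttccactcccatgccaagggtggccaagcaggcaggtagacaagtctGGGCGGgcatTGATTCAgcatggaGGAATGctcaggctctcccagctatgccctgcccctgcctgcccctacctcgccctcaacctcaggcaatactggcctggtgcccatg

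The GC box GGGCGG, the letters bound by SP and KLF factors, was present in 7 of these 8 windows and in 9 of all 12 rank-chosen sites, and 3 copies stood in the Myo1c window beside TEAD letters, GGAATG, at 2 places. The GC box was far less common at large, in 17.7% of strongest flank windows and 4.18% of all flank windows of NG, and the other lists are given below. The Fbxo11 window also held the NFY letters CCAAT at 2 places, and the Syt8 window held AP-1 letters, TGANTCA, and TEAD letters. The N4bp2 window held RUNX letters, TGTGGTT. The Galnt7 window held none of the 8 motifs searched. Of the 12, Arid1a and Vcp also lacked the GC box. GC content ran from 60.2% at Syt8 to 72.6% at Galnt7 in the 8 windows and reached 81.6% at Zbtb2 among the 12, against medians of 53.7%, 55.2% and 55.7% for the strongest flank windows of the 3 lists and 47.3% over all flank summits.

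At the 9930021J03Rik site, 588 nt upstream of the TSS in NG, the pileup was 11.6 (interval 7.59 to 17.0) in NG, 17.1 (13.3 to 21.8) under HG+NT and 13.2 (10.3 to 16.8) under HG+miR-93. A pileup is the number of fragments over the summit at the depth of the input, and the local mean of the input at this site was 2.80 to 3.20. The site lay 79 nt from the start of a gene that does not code for protein. At Rictor, which encodes the defining subunit of the mTORC2 kinase complex, the pileup was 10.3 in NG, 12.2 under HG+NT and 10.1 under HG+miR-93, 572 to 622 nt upstream. The 3 intervals overlapped at both sites.

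At Myo1c, a class I myosin, the pileup was 10.3 in NG, 10.6 under HG+NT and 10.5 under HG+miR-93, at 1642 to 1654 nt upstream. Fbxo11, an F-box subunit of a ubiquitin ligase, had 13.0, 15.1 and 11.7 in the same order. Arid1a, a subunit of the BAF chromatin remodelling complex, had 10.3, 9.09 and 7.58. Mex3c, an RNA-binding ubiquitin ligase, had the highest pileups of these upstream sites, 17.4, 22.9 and 17.5, over a local input mean of 6 to 7. Among these 6 upstream sites the highest list by pileup was HG+NT at 5 and NG at Arid1a, and the intervals of the 3 lists overlapped at each. This order held for unscaled pileups only. With ratios taken over the median of all sites matched between lists, HG+NT over NG was 1.01 at Arid1a and HG+miR-93 over HG+NT was 1.03 at Myo1c. The highest list then changed to HG+NT at Arid1a and to HG+miR-93 at Myo1c.

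On the downstream side, N4bp2, which encodes a NEDD4-binding protein, had a pileup of 11.6 (7.59 to 17.0) in NG, 7.53 (5.04 to 10.8) under HG+NT and 7.19 (5.06 to 9.91) under HG+miR-93, at 596 to 680 nt. Zbtb2, a zinc finger transcriptional regulator, had 12.5, 16.6 and 11.9 over an input mean of 3.20 to 5.00. Jade2, a PHD finger protein of histone acetyltransferase complexes, had 8.93, 8.31 and 8.16 at 1367 to 1483 nt, the farthest of these 6 downstream sites. By unscaled pileup the N4bp2 and Jade2 sites were highest in NG and the Zbtb2 site in HG+NT, with overlapping intervals in every case. Over the median of matched sites, the Jade2 ratios were 1.07 for HG+NT over NG and 1.03 for HG+miR-93 over HG+NT. NG was then the lowest list at Jade2, and the highest list at N4bp2 and Zbtb2 was unchanged.

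Vcp, the ATPase that extracts ubiquitinated proteins, had 8.93, 7.79 and 6.41 at 510 to 645 nt. Galnt7, a GalNAc transferase of mucin-type O-glycosylation, had 7.15, 8.05 and 9.13, and Syt8, a synaptotagmin, had 6.25, 7.01 and 6.22. All 12 sites were among the 20000 strongest peaks of each list and none had separate intervals between lists, both of which largely follow from choosing them by rank in all 3.

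**Figure D1:**
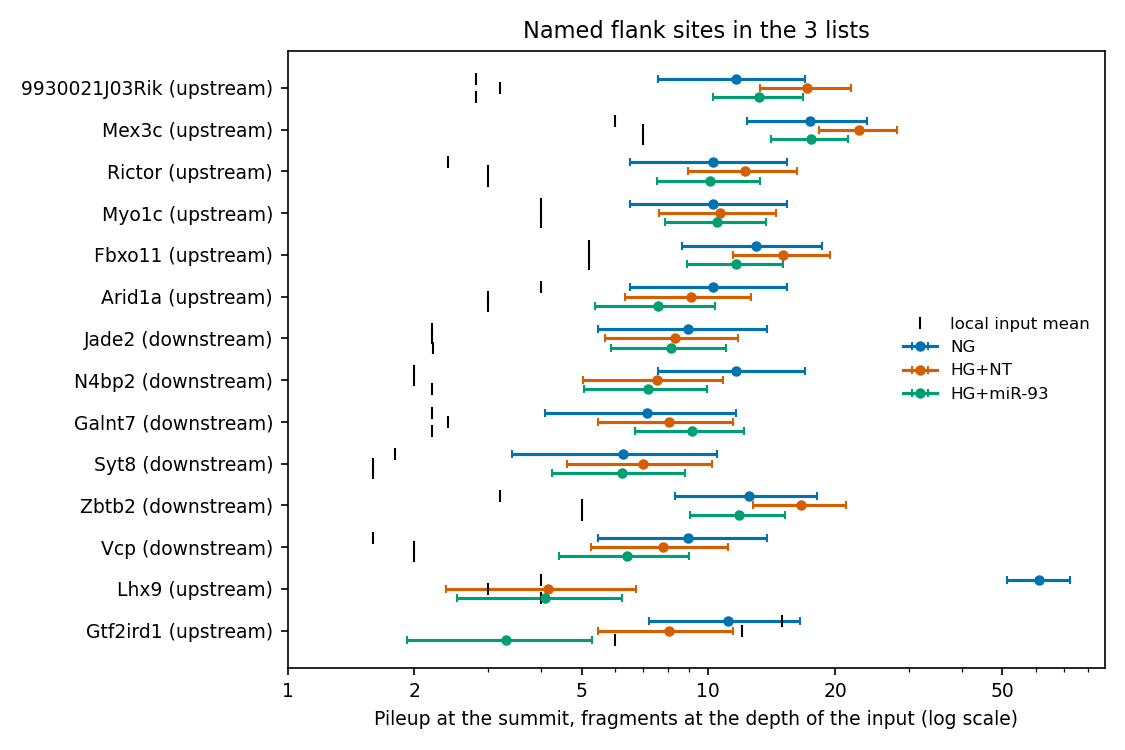
Pileup in the 3 lists at the 12 flank sites chosen for rank and at the site of lowest ratio in each comparison, as fragments scaled to the input depth, on a log axis, with exact 95% Poisson intervals (counting error only) and black ticks for the local input mean. The 12 were chosen for being high in all lists; Lhx9, chosen for its ratio, stands at 61.2 in NG against 4.15 and 4.08 in the HG lists.

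Across whole lists the flanks were slightly denser in peaks than the genome mean in NG and less dense in both HG lists. Density is given as the share of summits in a zone over the zone's share of bases, so that 1 is the genome mean. It was 1.03 (1.02 to 1.04) in NG, 0.969 (0.959 to 0.979) under HG+NT and 0.920 (0.911 to 0.929) under HG+miR-93. The lists were permissive: the fold over the input at the summit was below 1 for 26.3%, 34.4% and 38.1% of flank peaks. Median flank pileups were 3.13, 2.86 and 2.72, between those of peaks within 500 nt of a TSS (4.91, 4.67 and 4.47) and of peaks farther than 2500 nt (2.68, 2.60 and 2.33). The strongest peaks, the 20000 of each list with the highest −log10 p, were therefore examined separately. Strongest is a rank and not a confident call: the lowest −log10 p among them was 1.81 in each list. Their median at flank summits was 2.27 in NG, 1.94 under HG+NT and 1.94 under HG+miR-93. For strongest peaks farther than 2500 nt the median equalled the cut of 1.81 in both HG lists, so many were tied there.

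Among the strongest peaks, flank summits numbered 1286 in NG (543 upstream, 743 downstream), 1081 in HG+NT (406 and 675) and 1169 under HG+miR-93 (445 and 724). The downstream flank was denser than the genome in each list, at 1.61 (1.498 to 1.72), 1.46 (1.36 to 1.57) and 1.57 (1.46 to 1.68), with a mean of 1.54. The upstream flank was denser in NG, at 1.25 (1.15 to 1.36), and near the genome level under HG+NT and HG+miR-93, at 0.936 (0.850 to 1.03) and 1.03 (0.936 to 1.12), with a mean of 1.07. Core promoters reached 20.4, 14.0 and 10.7. For each strongest core summit there were 0.229 strongest flank summits in NG, 0.282 under HG+NT and 0.397 under HG+miR-93, a mean of 0.303. Ranked by pileup the same ratio was 0.199, 0.186 and 0.205, so the order of the lists was not kept, and sequencing depth relative to the input rose in the order NG, HG+NT and HG+miR-93 (2.24, 3.85 and 5.15 times). The part of depth in this order was not tested.

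The density was highest next to the core on both sides. In the 250 nt just beyond the inner limit downstream, from 500 to 750 nt, the density was 2.74 (2.36 to 3.18) in NG, 2.51 (2.15 to 2.94) under HG+NT and 2.59 (2.22 to 3.02) under HG+miR-93, with a mean of 2.62. From 750 to 1000 nt it was 1.93, 2.11 and 1.73. The 3 lists were alike here, with overlapping intervals in both bins. On the upstream side the bin next to the core held 2.62 (2.24 to 3.06) in NG, 1.37 (1.10 to 1.70) under HG+NT and 1.47 (1.19 to 1.81) under HG+miR-93, with a mean of 1.82. The NG interval lay above those of both HG lists, and in the next bin outwards the densities were 1.39, 0.628 and 0.906. Downstream the excess ran farther out: from 1000 to 1250 nt the density was 1.60, 1.32 and 1.70, and from 1750 to 2000 nt 1.27, 1.45 and 1.34, with intervals above 1. Between these bins the interval stayed above 1 throughout only in NG, and HG+NT from 1250 to 1500 nt was at 1.02 (0.788 to 1.31). From 2000 to 2500 nt all values on both sides lay between 0.763 and 1.38. The local input mean at flank peaks also rose towards the TSS, in NG upstream from 2.18 in the outermost bin to 2.51 in the innermost.

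**Figure D2:**
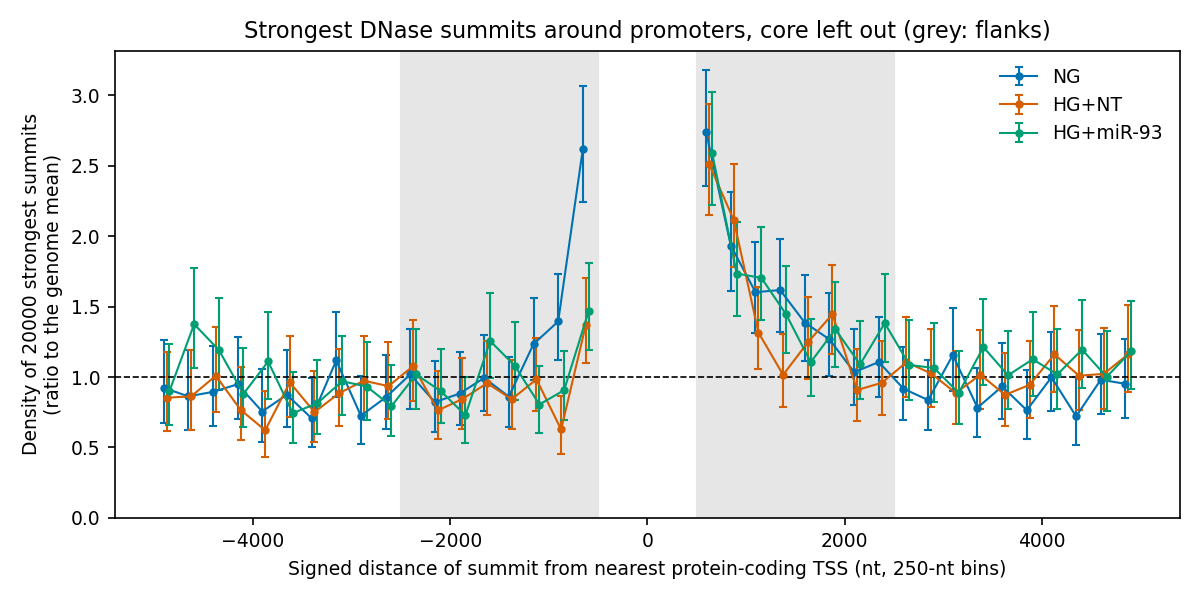
Density of the 20000 strongest summits of each list by signed distance from the nearest protein-coding TSS in 250-nt bins, as a ratio to the genome mean (dashed line), with 95% Wilson intervals. Grey marks the flanks and the core is left out. All 3 lists rise above 2.5 just downstream of the core, and upstream NG reaches 2.62 where the HG lists stay below 1.5.

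The limits of the flank were not steps in the data. Within 100 nt on the core side of 500 nt the density of strongest summits was 5.16 in NG, 2.97 under HG+NT and 2.99 under HG+miR-93, and within 100 nt on the flank side it was 3.45, 2.49 and 2.53. At 2500 nt the values were 0.939, 0.939 and 1.37 inside and 1.07, 1.14 and 1.09 outside.

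Strongest flank peaks were broad, as were strongest peaks elsewhere, and many reached the TSS itself. Their median width was 2910 bp in NG, 4969 bp under HG+NT and 5035 bp under HG+miR-93, against 1078, 1325 and 1287 bp over all flank peaks and 3157, 4791 and 4844 bp for strongest peaks farther than 2500 nt. The called interval covered the nearest TSS at 51.3%, 69.1% and 69.9% of strongest flank peaks. Each interval carried 1 summit, so none of these peaks also had a summit in the core. Such a peak was a flank peak because its highest point lay to one side of the start site.

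Strongest flank summits lay downstream more often than the division of bases would place them. The downstream share was 57.8% (55.1 to 60.4) in NG, 62.4% (59.5 to 65.3) under HG+NT and 61.9% (59.1 to 64.7) under HG+miR-93, with a mean of 60.7%, and 51.6% of flank bases were downstream. Over all flank peaks the share was 51.9%, 51.2% and 51.1%. Downstream flanks were denser than upstream flanks on 17, 19 and 18 of the 19 autosomes. The intervals of the 3 lists overlapped. Among the 5000 strongest peaks the NG share was 51.8% (46.7 to 56.9), level with bases, and those of the HG lists were 59.9% and 60.8%.

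What the downstream summits fell on differed between NG and the HG lists. In NG 11.4% (9.35 to 13.9) of strongest downstream summits lay in a coding exon, compared with 26.1% (22.9 to 29.5) under HG+NT and 26.9% (23.8 to 30.3) under HG+miR-93, a mean of 21.5%. Introns of protein-coding genes held 73.2%, 61.5% and 58.8%. The shares over all downstream flank peaks were closer together, 9.90%, 11.5% and 12.4% in coding exons. On the upstream side, where coding sequence belongs to other transcripts or neighbouring genes, the coding exon share was 2.03% in NG, 7.14% under HG+NT and 9.21% under HG+miR-93. Strongest peaks farther than 2500 nt from a TSS moved the same way, at 3.55%, 6.56% and 7.86%, so the difference was not particular to flanks.

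Within the flanks NG stood apart in these shares and the intervals of the 2 HG lists overlapped. The median GC content of strongest flank windows was 53.7% in NG, 55.2% under HG+NT and 55.7% under HG+miR-93, and depth rose in the same order. NG and HG+NT also differ in transfection, so glucose and mimic delivery cannot be told apart, and the part of GC content and depth was not tested.

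The promoters next to strongest flank summits differed as well. A promoter was called CpG-rich when the 500 nt on either side of the TSS had at least 50% GC and an observed to expected CpG ratio of at least 0.6, as at 43.5% of all TSSs. CpG-rich promoters were nearest to 46.3% (43.6 to 49.0) of strongest flank summits in NG, 34.5% (31.7 to 37.4) under HG+NT and 29.8% (27.2 to 32.5) under HG+miR-93, with a mean of 36.8%. Over all flank peaks the shares were 31.8%, 34.0% and 34.0%. The share depended on how many peaks were taken: among the 5000 strongest it was 59.9%, 50.2% and 44.1%, above all flank peaks in each list, and NG was again the highest. Strongest core summits were at CpG-rich promoters in 79.5%, 79.3% and 73.4%. Upstream and downstream flanks gave nearly the same values within a list, 46.4% and 46.2% in NG.

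**Figure D3:**
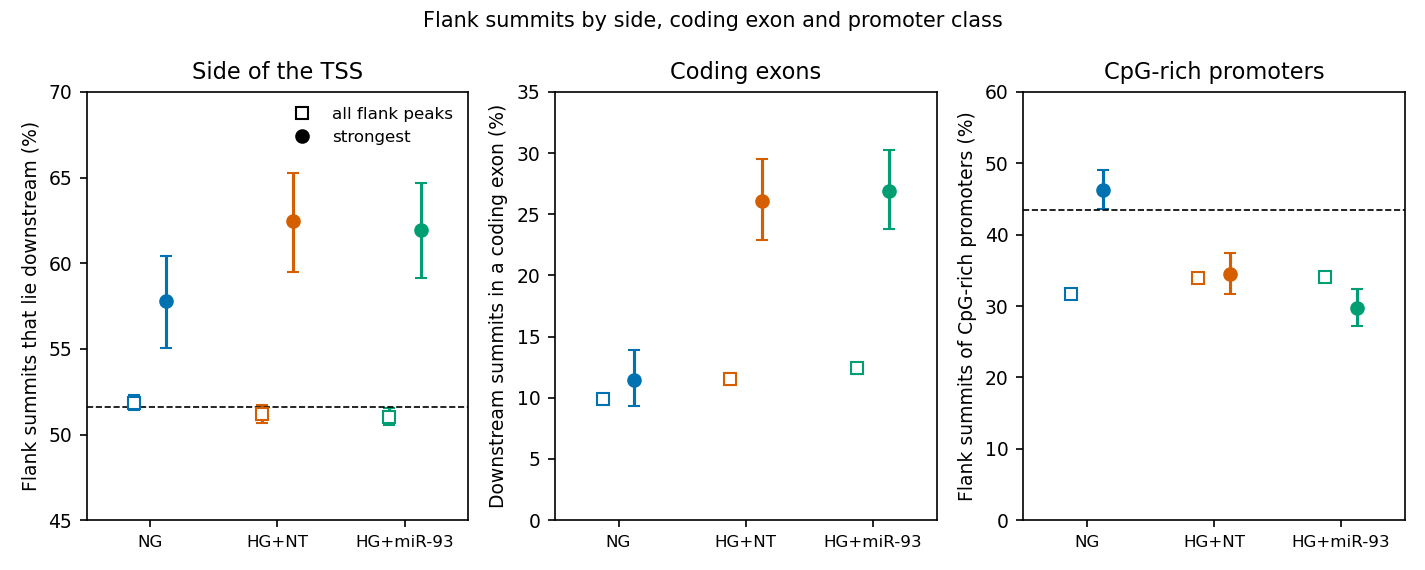
Shares of flank summits in percent with 95% Wilson intervals, open squares for all flank peaks and filled circles for the strongest. Left, downstream of the TSS, with the downstream share of bases dashed, on an axis from 45 to 70; middle, coding exons among downstream summits; right, CpG-rich nearest promoters, with all TSSs dashed. The filled circles of the left panel lie above the dashed line in each list, and NG departs from both HG lists in the middle and right panels.

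4 chromosomes took a large part of the strongest flank summits of the HG lists. Chromosomes 6, 8, 15 and 19 hold 17.5% of flank bases and held 20.3% (18.2 to 22.6) of strongest flank summits in NG, 35.7% (32.9 to 38.6) under HG+NT and 34.0% (31.3 to 36.7) under HG+miR-93. Over all flank peaks the order was the other way, 21.4% in NG against 15.3% in each HG list. Chromosome 15 was the densest under HG+miR-93, with 2.59 times its share by bases, against 1.27 in NG. With these chromosomes left out, the upstream density was 1.13 in NG, 1.11 under HG+NT and 1.13 under HG+miR-93, and the downstream density was 1.45, 1.60 and 1.88. The innermost upstream bin was then 2.37, 1.54 and 1.58, the coding exon share 10.996%, 25.6% and 27.5%, and the CpG-rich share 41.6%, 32.1% and 30.5%. NG thus stayed highest in the innermost upstream bin and in the CpG-rich share and lowest in coding exons, whereas the upstream flank as a whole was level. Of the rank-chosen sites, those at 9930021J03Rik, Rictor and Galnt7 lie on these 4 chromosomes.

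Some flank summits stood near start sites outside the set that defined the flanks. A TSS of a gene that does not code for protein lay within 250 nt of 3.27% (2.43 to 4.39) of strongest flank summits in NG, 2.78% (1.95 to 3.93) under HG+NT and 2.74% (1.95 to 3.84) under HG+miR-93, a mean of 2.93%, against 1.00%, 1.10% and 1.16% of all flank peaks. A TSS of a noncoding transcript of a protein-coding gene lay that near to 4.74%, 5.55% and 5.65%, against 2.11%, 2.13% and 2.03%. With both kinds together the shares were 7.93%, 8.05% and 8.21%, and the other strongest flank summits had no annotated start within 250 nt.

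Motif content separated strongest flank summits from flank peaks at large. The SP/KLF letters GGGCGG, on either strand, were in 17.7% (15.7 to 19.8) of the windows in NG, 16.7% (14.6 to 19.1) under HG+NT and 14.4% (12.5 to 16.5) under HG+miR-93, a mean of 16.3%, against 4.18%, 4.65% and 4.54% of all flank windows. Strongest core windows held them in 53.7%, 59.8% and 52.6%, and strongest windows farther than 2500 nt in 5.91%, 6.42% and 6.41%. Flanks therefore lay between core promoters and distal peaks in this measure, in each list.

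The letters CNAGNGGGC of CTCF, the insulator and loop-anchoring factor, were in 5.29%, 4.26% and 6.59% of strongest flank windows, against 2.07%, 2.18% and 2.06% of all flank windows. ETS letters, CCGGAAG, were in 3.03%, 2.87% and 2.91%, against 1.12%, 1.14% and 1.23%. AP-1 letters were at the level of all flank peaks, 6.07%, 6.85% and 5.05% against 6.03%, 6.39% and 6.10%. TEAD letters were likewise level, at 11.4%, 11.2% and 10.4%. CCAAT was lower under HG+NT and HG+miR-93 than over all flank windows, 20.6% against 24.0% and 17.6% against 23.8%, and RUNX letters were lower in NG, 2.95% against 4.47%. The CREB/ATF letters TGACGTCA were in under 1% of strongest flank windows. The GC box and the CTCF and ETS letters are GC-rich, as were the strongest windows, and a match describes letters, not binding.

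**Figure D4:**
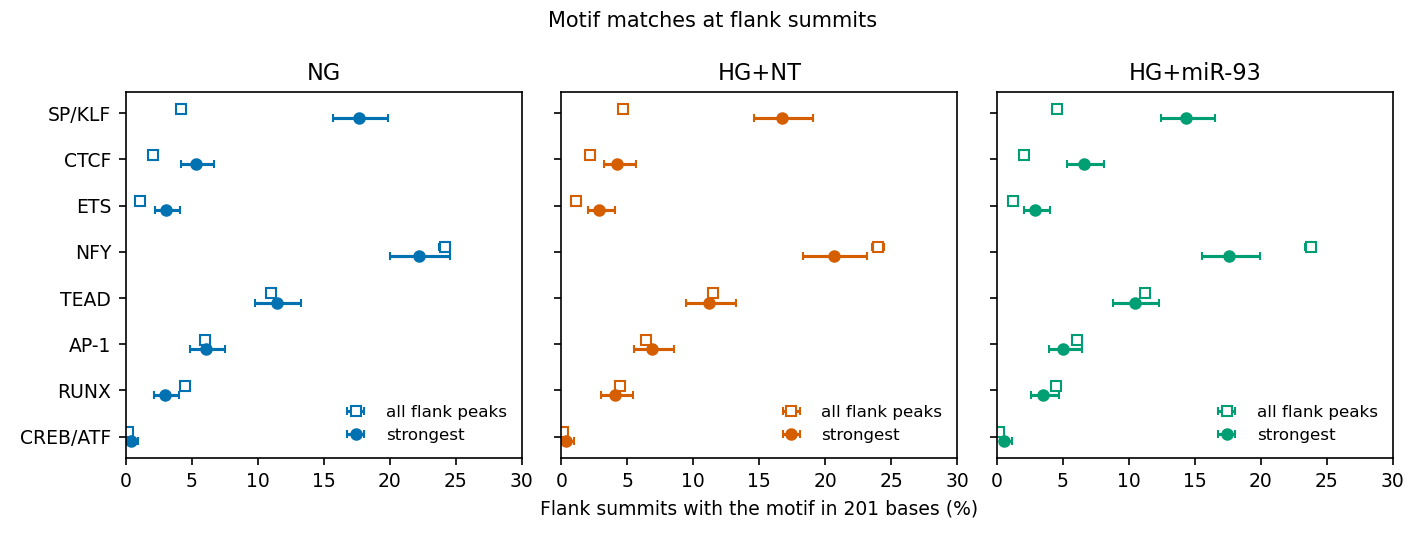
Share of flank summits whose window holds each motif on either strand, in percent with 95% Wilson intervals, open squares for all flank peaks and filled circles for the strongest, 1 panel a list. SP/KLF, CTCF and ETS letters lie to the right of all flank peaks in each panel, and AP-1 and TEAD letters do not.

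Flank summits recurred between lists far less than core summits. A summit of both other lists, of any strength, lay within 150 bp of 9.33% (7.86 to 11.04) of strongest flank summits in NG, 6.66% (5.32 to 8.31) under HG+NT and 5.39% (4.23 to 6.84) under HG+miR-93, a mean of 7.13%. The same shares were 34.1%, 36.7% and 32.5% for strongest core summits and 8.95%, 7.58% and 6.72% for strongest summits farther than 2500 nt. With both sides together the flanks were thus closer to the distal genome than to the core in this measure. By side, NG upstream was at 12.5% against 6.999% (5.38 to 9.06) downstream, and HG+miR-93 at 8.54% (6.28 to 11.5) against 3.45% (2.35 to 5.05), with separate intervals. HG+NT was at 8.87% (6.47 to 12.03) upstream against 5.33% (3.88 to 7.30) downstream, with overlapping intervals. Over all flank peaks the shares were 7.53% (7.30 to 7.77), 9.92% (9.62 to 10.2) and 10% (9.69 to 10.3). Strong flank peaks thus recurred less than flank peaks at large in both HG lists and more in NG, with separate intervals.

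A summit that was itself among the strongest of another list lay within 150 bp of 9.88%, 13.6% and 12.3% of strongest flank summits, a mean of 11.9%, compared with 33.7%, 53.5% and 55.5% in the core and 5.49%, 9.98% and 9.16% farther out. Upstream summits recurred more than downstream ones under HG+miR-93, 16.6% (13.5 to 20.4) against 9.67% (7.72 to 12.04). In NG the 2 sides were 11.2% and 8.88%, and in HG+NT 15.8% and 12.3%, with overlapping intervals. Strongest summits of both other lists stood by 1.56%, 1.76% and 1.80%.

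Sites matched in all 3 lists allowed pileups to be compared between conditions. Of 75661 autosomal sites whose summits were mutually nearest within 150 bp, 2746 were flank sites, 1364 upstream and 1382 downstream. From NG to HG+NT, with each ratio taken over the median of all matched sites, 209 flank sites were at least 2-fold higher (7.61%, 6.68 to 8.66) beside 7.79% of all matched sites. At least 2-fold lower were 204 (7.43%, 6.51 to 8.47), beside 7.63%. From HG+NT to HG+miR-93, 79 were higher (2.88%, 2.31 to 3.57) beside 3.34%, and 96 lower (3.50%, 2.87 to 4.25) beside 4.75%. For the first comparison the flanks stood at the background in both directions. For the second they stood at or below it, the lower direction being the only one with an interval under the background. On other scales of the ratio the flank shares moved by over 1.5 times, and so did the background: with ratios of fold, 2.66% higher and 2.77% lower in HG+NT over NG beside 2.77% and 2.44%.

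By side, 7.77% upstream and 7.45% downstream were higher in HG+NT over NG. Of the sites lower in HG+miR-93 over HG+NT, the upstream share was 2.93% (2.16 to 3.97) and the downstream share 4.05% (3.13 to 5.23), and only the upstream interval lay under the background. Of the flank sites higher in HG+NT, 15 were at least 2-fold lower again under HG+miR-93, and of those lower in HG+NT, 39 were higher again. Over all matched sites these counts were 653 of 5891 and 1263 of 5771. They share the HG+NT value between both ratios and are given as counts only. Poisson intervals separated at 5 flank sites between NG and HG+NT (0.182%, beside 0.169% of all matched sites) and at 1 between HG+NT and HG+miR-93 (0.0364%, beside 0.0595%). These intervals are of pileups as recovered. With HG lists scaled to the median matched site, 3 separated between NG and HG+NT, 2 lower, Lhx9 among them, and 1 higher, at Angptl6, and 0 between the HG lists.

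**Figure D5:**
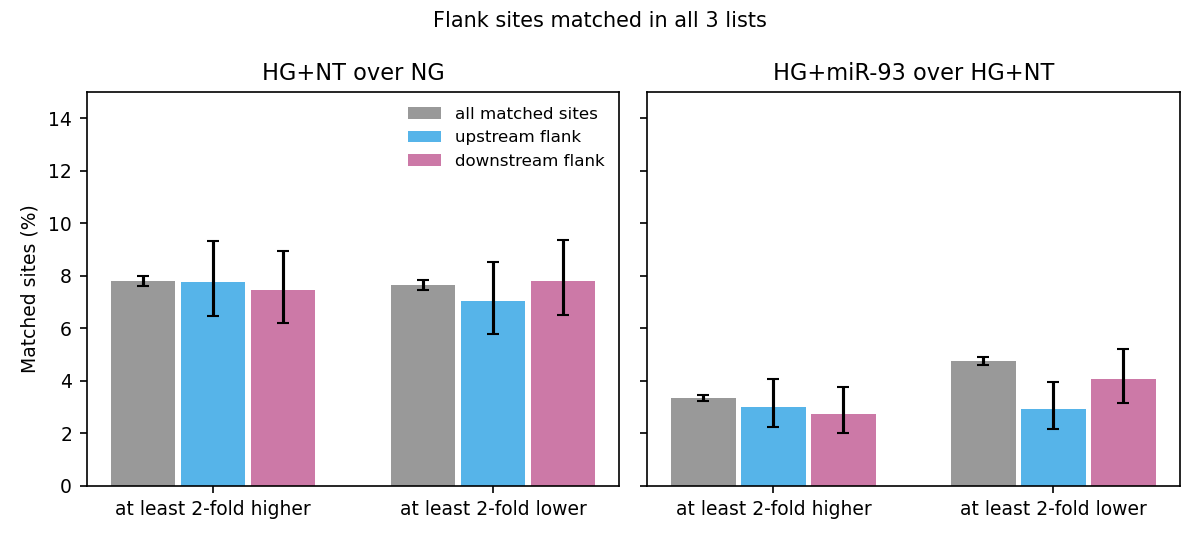
Percent of matched sites at least 2-fold higher or lower in HG+NT over NG (left) and HG+miR-93 over HG+NT (right), relative to the median matched site, with 95% Wilson intervals. Bars show all 75661 matched sites, 1364 upstream and 1382 downstream flank sites, and the flank bars lie close to the grey bars on the left and below them on the right.

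Among the separated flank sites with 1 solution for their fragments, none was higher in HG+NT than in NG on the unscaled pileups, and 2 of the 3 with the lowest ratio are given here. Lhx9, a LIM homeobox transcription factor gene, had a pileup of 61.2 (51.4 to 72.3) in NG, 4.15 (2.37 to 6.75) under HG+NT and 4.08 (2.53 to 6.24) under HG+miR-93, 1145 to 1276 nt upstream of a TSS and inside another Lhx9 transcript. The local input mean there was 3 to 4, so the HG lists were close to the input. S100a11, a calcium-binding protein gene, had 8.93 (5.46 to 13.8), 3.12 (1.61 to 5.44) and 3.50 at 2244 to 2301 nt downstream, and its separation ends once HG+NT is scaled to the median matched site.

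Gtf2ird1, a gene of the TFII-I transcription factor family, had 11.2 in NG, 8.05 under HG+NT and 3.30 (1.92 to 5.29) under HG+miR-93, and was the 1 flank site that separated between the HG lists, which it did on the unscaled pileups only. Its fold over the input was 0.760, 0.696 and 0.615, so the pileup stayed under the local input in each list, and 63.7% of its window was repeat-masked. The input mean used for the 3 lists also differed at this site, at 15, 12 and 6.

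9 flank peaks reached a −log10 q of 2 or more, 6 in NG, 3 under HG+NT and none under HG+miR-93. The 3 HG+NT peaks lay on chromosomes 6, 8 and 19, all among the 4 chromosomes above. Of the NG peaks, those of Setd5 and F11 lay on chromosomes 6 and 8. Core peaks at that level numbered 20, 83 and 1 and peaks farther than 2500 nt 47, 8 and 0, so the HG+miR-93 list had almost none anywhere. The 3 highest were NG peaks: Lhx9 with 137 fragments, Olfr725, an olfactory receptor gene, with 89, and Tph1, tryptophan hydroxylase, with 70. Pileups were 61.2, 39.8 and 31.3. The nearest HG+NT summits to Olfr725 and Tph1 lay 574 and 577 bp away with pileups of 2.08 and 2.86, near their input means of 1.60 and 2.00. The nearest HG summits to these tall sites were thus close to the input.

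Setd5, on chromosome 6, was called in both NG and HG+NT and was chosen after its values were seen. Its flank summit stood 638 nt upstream in NG and 818 nt upstream in HG+NT, in an intron of Gt(ROSA)26Sor, the ubiquitously transcribed locus used for knock-in alleles. The pileup was 17.9 (12.8 to 24.3) in NG and 19.996 (15.8 to 25.0) in HG+NT, and the HG+miR-93 summit 273 bp from the latter had 13.0. Unlike the tallest NG peaks, this site stood well above its input mean of 3.40 to 4 in each list.

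At the level of genes, 1233 of 20722 autosomal protein-coding genes (5.95%) had a strongest flank summit in NG, 1030 (4.97%) under HG+NT and 1116 (5.39%) under HG+miR-93. 73 genes had one in all 3 lists and 2809 in any. A strongest core summit was also present at 24.0%, 13.4% and 12.7% of the genes with a strongest flank summit, while 26.4%, 18.1% and 13.9% of all genes had one. These shares are partly fixed by the calling, since an interval carries 1 summit and many strongest flank intervals cover the TSS.

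Of 24 podocyte genes, 5 had a strongest flank summit in NG and none in HG+NT or HG+miR-93, beside the backgrounds above. They were Podxl, the sialomucin of the podocyte surface, Synpo, which encodes synaptopodin, Actn4, an actin crosslinker, Lamb2, a laminin chain of the glomerular basement membrane, and Vegfa, a growth factor for glomerular endothelium. The NG pileups were 5.81, 5.36, 6.25, 6.70 and 7.15 in that order, from 12 to 16 fragments. At Synpo the nearest HG+NT summit, 333 bp from that of NG, had 2.86 (1.43 to 5.11) and the nearest of HG+miR-93, 57 bp away, had 4.08 (2.53 to 6.24), both within or overlapping the NG interval of 2.77 to 9.36. The HG values at Synpo are therefore not distinguishable from NG at this depth although they ranked below the strongest 20000. At Actn4 the HG+NT summit 46 bp from that of NG had 3.64 (1.99 to 6.10), overlapping NG at 3.42 to 10.5. At Lamb2 the nearest summits lay 552 bp away in HG+NT, with 4.93, and 436 bp away under HG+miR-93, with 6.02, both within the NG interval of 3.75 to 11.05. Podxl and Vegfa had no flank peak of any strength in either HG list, and the nearest HG+miR-93 summits, 1531 and 1201 bp away, had 5.25 (3.46 to 7.63) and 6.996 (4.90 to 9.69). Their nearest HG+NT summits, 2259 and 2512 bp away, had 2.86 (1.43 to 5.11) and 4.15 (2.37 to 6.75).

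Nphs1, which encodes nephrin of the slit diaphragm and is a defining podocyte gene, had no strongest core or flank summit in any list. Core summits among the strongest were present at 10, 9 and 6 of the 24 podocyte genes, beside 26.4%, 18.1% and 13.9% of all genes. Of 15 genes marking other cell types, 2, 2 and 3 had a strongest flank summit, beside 5.95%, 4.97% and 5.39% of all genes, and 0, 1 and 0 a strongest core summit. Rbfox3, a neuronal splicing factor, was the 1 such gene with a strongest flank summit in more than 1 list, at 4.41 under HG+NT and 5.05 under HG+miR-93.

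Among 18 immediate early genes, beside 5.95%, 4.97% and 5.39% of all genes, 4 had a strongest flank summit in NG, 2 under HG+NT and 3 under HG+miR-93. Junb, an AP-1 subunit gene, was the 1 list gene with one in all 3, at 1778 nt upstream in NG, 1284 under HG+NT and 1520 under HG+miR-93. Its pileups were 12.5 (8.31 to 18.1), 16.1 (12.3 to 20.6) and 12.8 (9.92 to 16.3), with overlapping intervals, and the summits lay 236 to 494 bp apart. Junb is on chromosome 8, one of the 4 chromosomes above, and Fosl1, Ier2 and Myc also lie on those 4. Jun, Fosb and Zfp36 had one in NG, with pileups of 11.2, 13.4 and 12.1, Fosl1 had one in HG+NT, with 5.45, and Ier2 and Myc had one under HG+miR-93, with 9.72 and 6.02. At Jun the nearest summits had 14.8 (11.2 to 19.2) in HG+NT, 563 bp away, and 10.5 (7.88 to 13.7) under HG+miR-93, 582 bp away, overlapping NG at 7.23 to 16.5. At Zfp36 they had 5.71 (3.58 to 8.65) in HG+NT, 753 bp away, and 5.83 (3.93 to 8.32) under HG+miR-93, 9 bp away. Both overlap NG at 7.95 to 17.5. At Fosb the nearest HG+NT summit, 248 bp from that of NG, had 5.71 (3.58 to 8.65), against 9.04 to 19.1 in NG, intervals that separate as recovered but overlap once HG+NT is scaled to the median matched site. At Fosl1 the NG summit 139 bp away had 4.91, and at Myc the nearest NG summit, 449 bp away, had 3.57 (1.54 to 7.04), both with overlapping intervals. At Ier2 the nearest NG summit, 958 bp away, had 2.23 (0.725 to 5.21) against 7.21 to 12.8 under HG+miR-93, intervals that separate as recovered. The nearest HG+NT summit to it, 819 bp away, had 12.5 (9.19 to 16.5), which overlaps HG+miR-93.

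Of 21 matrix and profibrotic genes, set against the same 5.95%, 4.97% and 5.39% of all genes, 4 had a strongest flank summit in NG, 3 under HG+NT and 1 under HG+miR-93. Smad7, the inhibitory SMAD of TGF-β signalling, had one in NG at 1526 nt downstream, with a pileup of 7.59, and in HG+NT at 672 nt upstream, with 13.5. The nearest summit to the latter had 11.2 (7.23 to 16.5) in NG, 184 bp away, within the spread of counting error. At the NG summit of Smad7, with an interval of 4.42 to 12.2, the nearest HG+NT summit, 73 bp away, had 3.90 (2.18 to 6.42). The nearest HG+miR-93 summit, 166 bp away, had 2.14 (1.07 to 3.82), an interval separate from that of NG on the pileups as recovered. Scaling to the median matched site raises HG values, as the median ratios were 0.872 for HG+NT over NG and 0.958 for HG+miR-93 over HG+NT. The narrow separation at Smad7 was not examined on that scale. Tgfb1, Smad3 and Col4a1 also had one in NG, Thbs1 and Acta2 in HG+NT, and Mmp2 under HG+miR-93, which places them by rank and does not show a difference between lists. Col4a1, Acta2 and Mmp2, and Mapk11 named below, lie on the 4 chromosomes above. At Tgfb1 a HG+miR-93 summit 12 bp from the NG summit had 5.64 (3.77 to 8.09) against 6.70 (3.75 to 11.05). Of 8 genes of the Msk kinase pathway, Mapk11, a p38 kinase gene, had one under HG+miR-93 alone, at 7.19 (5.06 to 9.91), where the nearest NG summit, 11 bp away, had 3.57 (1.54 to 7.04), an overlapping interval. None of 10 housekeeping genes had a strongest flank summit in any list, although 6, 3 and 1 of them had a strongest core summit, beside 26.4%, 18.1% and 13.9% of all genes.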

How the data were processed

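DNase-Seq libraries of 6 podocyte samples (2 each of NG, HG+NT and HG+miR-93) and 1 genomic DNA input were sequenced. The deposited files were 1 MACS2 peak list per condition on mm10, replicates pooled by the authors. Submitters' processing notes name CASAVA 1.8.2, Bowtie and MACS2. The paper states that MACS2 was run with settings recommended for DNase-seq and with the input as control. Values of these settings are not given in the sources used here, and the lowest −log10 p was 0.0459. The authors' columns used were the fold enrichment over the input (a ratio) and the deposited −log10 p-value at each summit. The deposited −log10 q-value, a score here, served 1 naming rule. Depth per sample is unknown from pooled lists. Whole fragments and the local input mean were recovered from fold and p, assuming input means at the background of 1.43 or at multiples of 0.02 (all peaks solved, with 1 solution for at least 99.8%), giving a median of 6, 10 and 12 fragments per peak at 2.24, 3.85 and 5.15 times the input depth. The solver, the nearest-TSS step and the matching were tested on simulated data.

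TSSs were the 52092 starts of protein-coding transcripts of 20722 genes on chromosomes 1 to 19 in GENCODE vM21 (GRCm38). All peak ends fit the chromosomes of GRCm38. Calculations used Python 3.11.15, NumPy 2.4.6, pandas 2.3.3 and SciPy 1.17.1. Strongest peaks were the 20000 per list by −log10 p, then fold, with equal peaks in a seeded order. Named sites were the 6 per side with the highest mean rank in all lists, list genes in at least 2 lists, up to 3 matched sites a direction with separate intervals, and the 3 highest of the peaks with −log10 q of at least 2. Other list genes were named after their values were seen. The members, gene lists and 4 chromosomes were chosen with earlier results of these data known. Alternatives changed the number and ranking of strongest peaks, TSS set, inner limit, match distance, thresholds, ratio scale and chromosomes. A few sites and genes that these rules name are not reported here.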

Additional observations from a re-analysis of the deposited data

How the results depend on the processing

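No paired analysis was possible because the authors pooled the 2 samples of each condition into 1 list, and for the same reason no replicate could be left out. Values here are means of the 3 lists unless stated, and the cause of each shift was not tested. With the 5000 strongest peaks the upstream density was 1.37, downstream 1.74, inner bins 3.25 upstream and 3.97 downstream, downstream share 57.5%, flank to core ratio 0.167, recurrence 10.7% (both other lists) and 14.7% (strongest), noncoding TSS share 4.64% and CpG-rich share 51.4%; in NG the downstream share was 51.8% and so level with bases. With 50000 the inner bins were 1.42 and 2.19, the ratio 0.458 and the CpG-rich share 32.4%. Ranked by fold, downstream density was 1.67 and the ratio 0.360. Ranked by pileup, densities were 1.505 and 2.06, inner bins 3.17 and 4.31, the ratio 0.197, recurrence 11.03% and 22.9%, CpG-rich share 49.4% and SP/KLF share 20.3%. With 1 TSS per gene, downstream density was 2.18, its inner bin 4.84, downstream share 68.9%, recurrence 10.1% and 17.1%, noncoding TSS share 4.35% and CpG-rich share 46.6%. With an inner limit of 1000 nt, densities were 0.949 and 1.28, the ratio 0.171, recurrence of strongest 9.56% and CpG-rich share 29.9%. Without chromosomes 6, 8, 15 and 19 the ratio was 0.349. Matching within 50 bp gave recurrence of 1.76% and 5.59%, and within 300 bp 17.2% and 18.2%. Within 500 nt the noncoding TSS share was 5.196%. The stricter CpG class gave 31.1%, and windows of 50 bases to either side an SP/KLF share of 9.86%. For matched flank sites, ratios as recovered gave 4.62% higher and 11.4% lower in HG+NT over NG (all matched sites 4.78% and 11.3%); the median matched ratio of HG+NT over NG was 0.872 before scaling. Ratios of fold gave 2.66% and 2.77% (all 2.77% and 2.44%), then 0.947% and 0.510% in HG+miR-93 over HG+NT (all 0.973% and 0.856%), and a 1.5-fold limit gave 19.1%, 17.3%, 12.3% and 10.9% (all 18.2%, 16.1%, 12.1% and 13.1%). Scaled to the median matched site, 3 flank sites had separate intervals between NG and HG+NT in place of 5, and 0 in place of 1 between the HG lists. The inner bins, the coding exon share and the SP/KLF share by ranking or chromosomes, and the scaled intervals, were added after the data were seen. A median peak held 6 to 12 fragments, and 2-fold changes at single sites were mostly not separable from counting error. Relative to the median matched site, 209 flank sites were higher and 204 lower in HG+NT over NG. On the same scale 3 had separate intervals.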
